A study of Mus musculus with 4 samples.

Results

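Dendritic cells of the type 2 conventional kind (cDC2) were sought in single-cell libraries of mouse liver by a gate on UMI counts (unique molecules counted per gene and cell), and 130 cells of 25861 kept cells met it. The members were chosen by measured values, so the genes of the gate describe the cells and support nothing. A cell had to hold at least 2 UMIs of the lectin genes Cd209a, Mgl2 and Clec10a together, at least 1 UMI of Flt3 or Zbtb46, and at least 20 UMIs of H2-Aa, H2-Ab1 and Cd74. It also had to stay below 2 UMIs of Xcr1 and Clec9a, below 5 of Ccl22, Ccr7, Fscn1 and Cacnb3, at or below 2 of Clec4f, below 10 of the 3 C1q genes, and below 0.2% of its UMIs in 6 endothelial genes. The gate found 33 cells in corn oil mouse 1, 16 in corn oil mouse 2, 47 in CCl4 mouse 1 and 34 in CCl4 mouse 2. The data went against part of the cDC2 label. Of the 130 cells, 33 held at least 3 UMIs of Siglech and Ccr9 together, which are genes of plasmacytoid dendritic cells. The members are thus called here by their gate.

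Wild-type male mice, 8 to 10 weeks old, were injected intraperitoneally 2 times a week for 5 weeks and killed 48 hours after the last injection. CCl4 mice (n = 2) received carbon tetrachloride, a solvent that injures hepatocytes, mixed 1 to 9 with the oil, in a volume of 10 µl for each g of the mouse. Corn oil mice (n = 2) received the vehicle, so all 4 mice shared the oil and the injections. Cells were freed with pronase and collagenase, hepatocytes were spun out at 50 × g, dead cells and erythrocytes were removed on a density gradient, and the cells were captured on a BD Rhapsody cartridge.

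Conventional dendritic cells take up antigen, load peptides on MHC class II and carry them to T cells. The cDC2 branch bears CD11b (Itgam) and the C-type lectins named above and depends on factors such as Irf4, while the cDC1 branch bears Xcr1 and Clec9a and depends on Irf8 and Batf3. Plasmacytoid dendritic cells are a separate lineage, known for secreting type I interferon, set by Tcf4 (E2-2) and marked in mice by Siglech. Monocytes that enter inflamed tissue can take on MHC class II and lectins of the cDC2 kind, so the borders between these cells are drawn by several genes at once.

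The libraries held 5948 to 7663 deposited cells and 45408857 to 55529871 UMIs. The gated cells together held 156367, 75338, 257788 and 193403 UMIs (corn oil mice 1 and 2, then CCl4 mice 1 and 2), and a gated cell had a median of 4753, 4573.5, 4904 and 5244 UMIs. No cell index in the gate was shared between libraries, while 42 to 70 indices of kept cells were shared by each pair of libraries. The headers of the deposited tables give 1 analysis day for CCl4 1 and another for the other 3 mice, so a difference between those runs and that mouse cannot be told apart. Levels below are CPM, the UMIs of a gene per 1000000 UMIs of the cells summed in 1 mouse, in that order of mice unless said otherwise.

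Among the lectins, Cd209a, a homologue of the human receptor DC-SIGN, stood at 851, 956, 888 and 729 CPM in the gate and at 2.61 to 4.17 CPM in all other kept cells. Mgl2, a galactose-binding lectin, varied most, with 345, 226, 659 and 93.1 CPM. Clec10a, its close relative, stood at 480, 372, 388 and 212 CPM. Cells that held at least 2 of these 3 genes numbered 25 of 33, 14 of 16, 26 of 47 and 16 of 34, and CCl4 2 had the fewest Mgl2 cells, 6 of 34. Cells exactly at the lectin minimum numbered 4, 3, 8 and 6, while 6, 4, 12 and 13 cells missed the gate only by having 1 lectin UMI. Many cells stood at the edge of the condition on Flt3 and Zbtb46. At 1 UMI of that pair stood 21, 11, 16 and 13 gated cells, and 17, 17, 22 and 19 cells failed only for having none.

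H2-DMb2, part of the DM chaperone that loads peptides on MHC class II, is a gene outside the gate rule and lies on chr17:34143307-34151555 (GRCm38, plus strand). Its level was 249, 265, 299 and 228 CPM in the gate, 156, 220, 139 and 134 CPM in the cDC1 cells (Xcr1 and Clec9a at 2 UMIs or more), and 6.58 to 8.95 CPM in all kept cells outside the gate. By the ratio of the lowest gated mouse to the highest mouse of the other cells, the leading genes outside the gate were Ctnnd2 (34.1), H2-DMb2 (25.4), Kmo (16.9), Klrd1 (16.7) and H2-Eb1 (16.1). The next were Srgap3, Ciita, the activator of MHC class II genes, Bcl11a, Rgs18, H2-Ob, Klrb1b, Pacsin1, Cd300c, Btla and P2ry10, with ratios of 14.6 down to 9.61. These ratios come from the cells that were gated and are a description without a test. They set the gate against the mean of many cell types, and several of the genes were as high in other dendritic cells. Btla stood at 70.3 to 124 CPM in the gate and at 213 to 363 CPM in cDC1, and H2-Ob at 51.7 to 141 against 95.3 to 312 CPM. Pacsin1 and Cd300c had 93.0% and 95.5% of their gated UMIs in the Siglech+ cells described next, and Bcl11a and Kmo had 55.9% and 47.0%. Kmo stood at 548 to 668 CPM in Siglech+ cells and at 148 to 231 CPM in the other gated cells. Bcl11a stood at 779 to 1438 CPM against 167 to 301 CPM. The other leading genes had 0% to 31.3% of their gated UMIs in Siglech+ cells. Sirpa, a receptor often used to tell cDC2 from cDC1, did not set the gate apart, with 128 to 176 CPM inside and 100 to 181 CPM outside, but it was at 0 to 30.3 CPM in cDC1. Itgam stood at 333, 451, 481 and 796 CPM in the gate and at 0 to 31.7 CPM in cDC1, and Cst3 was lower in the gate (2652 to 3759 CPM) than in cDC1 (14454 to 17798 CPM). Gcsam, found at 148 to 234 CPM in cDC1, had no UMI in any gated cell, which allows up to 3 UMIs in the 682896 of the gate.

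The 130 cells were of 2 kinds. Siglech, a sialic acid-binding receptor of plasmacytoid cells on chr7:55768178-55778925 (GRCm38, plus strand), and Ccr9, a chemokine receptor, were abundant in some gated cells and missing from most others. Together they gave 18 to 37 UMIs in 14 cells of corn oil 1, 21 to 35 in 8 cells of corn oil 2, 18 to 69 in 7 cells of CCl4 1 and 4 to 45 in 4 cells of CCl4 2. Of the other 97 cells, 96 had none and 1 had 1 UMI. The cell with 4 UMIs is 1 of only 4 in CCl4 2, where the next had 19. The cells with at least 3 UMIs are called Siglech+ below. They made up 42.4% of the gate in corn oil 1 (95% interval 25.5 to 60.8), 50.0% in corn oil 2 (24.7 to 75.3), 14.9% in CCl4 1 (6.20 to 28.3) and 11.8% in CCl4 2 (3.30 to 27.5). These exact Clopper-Pearson intervals cover counting error only. Without the cell of 4 UMIs the share in CCl4 2 was 8.82%. With each cell thinned to 3000 UMIs the shares were 43.8% of 32 cells, 50.0% of 14, 14.9% of 47 and 8.82% of 34. Both corn oil mice stood above both CCl4 mice. The same threshold was met by 0% to 0.625% of Kupffer cells, whose median was 9057 to 15414 UMIs. Because this split was made after the values had been seen, it is given without a test.

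**Figure D1:**
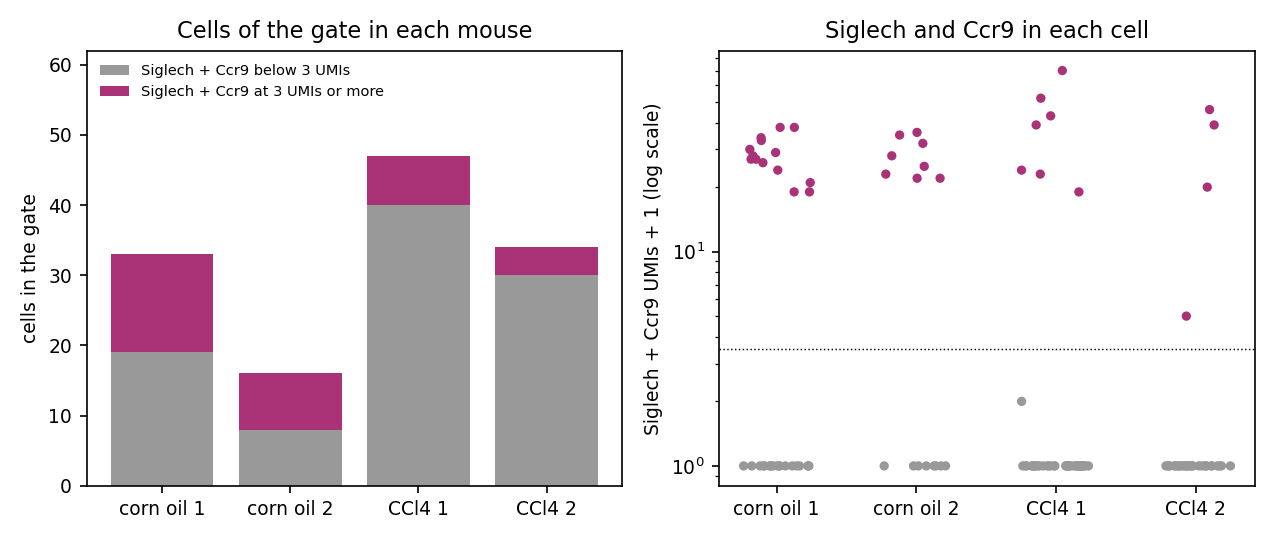
Left, number of gated cells in each mouse, with Siglech+ cells in purple (14, 8, 7 and 4) on top of the other cells in grey (19, 8, 40 and 30). Right, UMIs of Siglech and Ccr9 plus 1 in each gated cell on a log scale, 1 point per cell, with the dotted line below 3 UMIs marking the split and few cells near it.

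The Siglech+ cells carried the factors of the plasmacytoid lineage. Irf8, an interferon regulatory factor, stood at 5425, 5407, 4615 and 2930 CPM in them and at 10.0, 46.1, 98.6 and 97.7 CPM in the other cells. Tcf4 stood at 2474, 2688, 2625 and 1851 CPM against 110, 23.1, 202 and 155 CPM. Spib, an Ets factor, and Klk1, a kallikrein, gave 836 to 1325 and 260 to 813 CPM in Siglech+ cells and at most 69.2 and 0 CPM in the others. The cell of 4 UMIs held 6 UMIs of Tcf4 but none of Irf8, Spib or Klk1. Without it, CCl4 2 gave 3780 CPM of Irf8 and 1989 CPM of Tcf4. All of these values lay in the range of the plasmacytoid gate (Siglech and Ccr9 at 3 UMIs or more, lectins below 2) or above it. That gate, which the lectin condition keeps apart from these members, gave 2618 to 4600 CPM of Irf8 and 1385 to 2493 CPM of Tcf4 in its 164 cells. Of the Siglech+ cells of both gates together, 24.1%, 22.9%, 12.3% and 8.51% had enough lectin UMIs to be members. The plasmacytoid gate set no condition on Flt3 or MHC class II, and its T and NK markers summed to 2351, 9469, 610 and 850 CPM. It may thus hold other cells, in unlike shares by mouse. In Siglech+ members the lectin found most often was Clec10a, in 13 of 14, 8 of 8, 7 of 7 and 4 of 4 cells. A Siglech+ cell had a median of 3993, 3379, 4922 and 4874.5 UMIs, not above the 5085, 5259, 4862 and 5593 of the other gated cells except in CCl4 1, and 1 of the 33 was among the 5% of kept cells with the highest doublet score.

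The other 97 cells carried more of several genes of conventional dendritic cells, but not of every list. H2-DMb2 stood at 371, 392, 341 and 253 CPM in them against 35.3, 93.8, 28.8 and 0 CPM in Siglech+ cells. Itgam stood at 521, 784, 556 and 880 CPM against 0, 0, 0 and 51.4 CPM (1 UMI, in the cell of 4 UMIs), and Id2, an inhibitor of E proteins that conventional dendritic cells need, at 1363, 808, 1340 and 1029 CPM against 0, 93.8, 28.8 and 0 CPM. The 17 measured genes of MHC class II presentation outside the gate summed to 16907 to 21448 CPM here and to 9366 to 10498 CPM in Siglech+ cells. The 30 cDC2 features outside the gate did not set the 2 kinds apart. They summed to 4931, 4868, 4885 and 4478 CPM here and to 3852, 5782, 4297 and 6014 CPM in Siglech+ cells. In CCl4 mice the Ly6c2 and Chil3 gate, described below, gave 5204 and 4963 CPM of these features. It gave 1095 and 975 CPM of Itgam, 661 and 670 CPM of Id2, and 5.41 and 8.16 CPM of H2-DMb2.

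**Figure D2:**
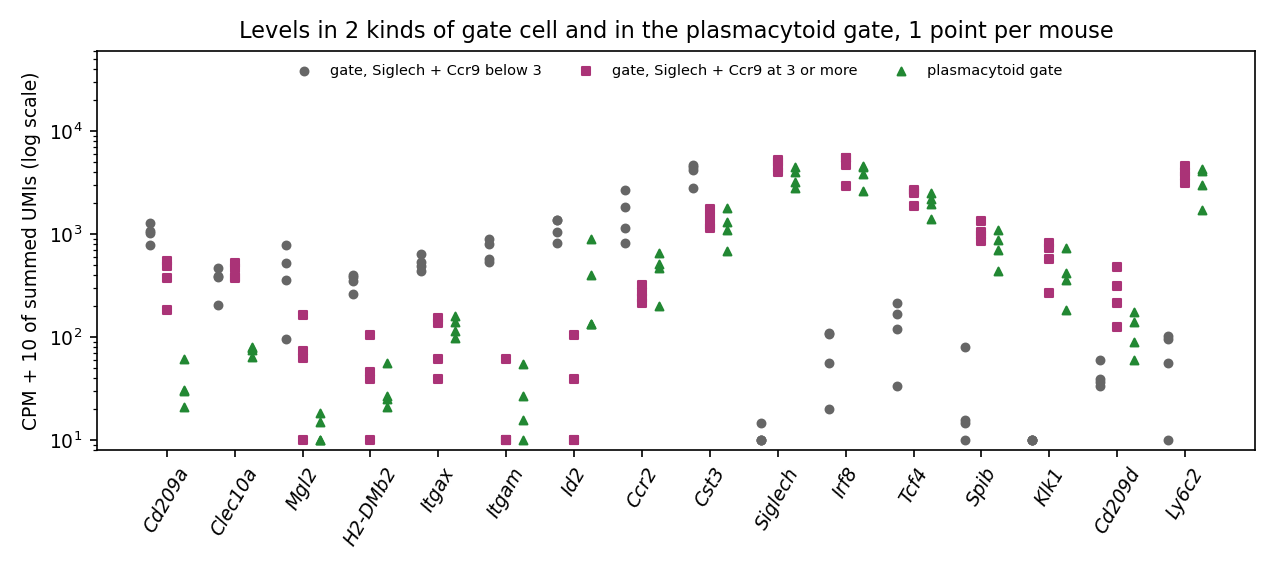
CPM plus 10 on a log scale for 16 genes, 1 point per mouse, in Siglech+ gated cells (purple squares), the other gated cells (grey circles) and the plasmacytoid gate (green triangles). From Siglech to Ly6c2 the purple squares lie with the green triangles or above them, and Itgam and Id2 are near 0 in purple, while the lectins set the gates apart by rule.

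Whether the gated cells took a larger share of the liver suspension after CCl4 was tested on cell numbers. They made up 0.482% of kept cells in corn oil 1 (95% interval 0.332 to 0.676), 0.221% in corn oil 2 (0.126 to 0.358), 0.765% in CCl4 1 (0.563 to 1.02) and 0.605% in CCl4 2 (0.419 to 0.844). Both CCl4 mice stood above both corn oil mice. The mean was 0.351% ± 0.184 (SD, n = 2) against 0.685% ± 0.114 (SD, n = 2), and the exact two-sided permutation test gave p = 0.33, the smallest that 2 against 2 mice allow. edgeR's quasi-likelihood test gave a log2 change of 0.97 ± 0.49 (SE) with an adjusted p of 0.140 over 7 gates, so no change was called. Without corn oil 1 the log2 change was 1.63 with an edgeR adjusted p of 0.0397.

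The direction depended on the denominator and on the Siglech+ cells. Monocytes of the Ly6c2 and Chil3 gate went from 1.02% and 0.690% of kept cells to 9.49% and 15.4%, and mature dendritic cells from 2 and 1 cells to 57 and 18. Of kept cells with a UMI of Ptprc (CD45), those in the present gate were 4.40% and 1.88% in corn oil mice and 2.46% and 1.50% in CCl4 mice. That is a log2 change of -0.67 (exact permutation p = 0.67). Of the cells in the cDC1, mature dendritic and present gates together they were 50.8%, 40.0%, 34.6% and 39.1%, a log2 change of -0.33 (exact permutation p = 0.33). Both of these shares hold Siglech+ cells. With such cells left out of the members and of the denominator, the shares of those 3 gates were 38.0%, 29.6%, 33.9% and 38.5%, a log2 change of 0.06 (exact permutation p = 0.67). The shares of Ptprc cells were then 2.87%, 1.03%, 2.29% and 1.38%, a log2 change of -0.08 (exact permutation p = 1.0), and the groups overlapped in both. Counted without Siglech+ cells the members were 19, 8, 40 and 30, or 0.277%, 0.110%, 0.651% and 0.534% of kept cells, a log2 change of 1.61 with an edgeR adjusted p of 0.0760.

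Genes that changed inside the gate were tested on UMIs summed per mouse. Of 3175 genes tested, 59 were called (1.86% of those tested), with 27 higher in CCl4 (0.850%) and 32 lower (1.01%), at an adjusted p under 0.05 by edgeR's quasi-likelihood test, and 375 had an unadjusted p under 0.05. The median log2 change of all genes tested was 0.01. In sums of few cells a change in the mix of cells and a change within each cell cannot be told apart unless the kinds are separated. Of the 32 lower genes, 28 (87.5%) had the higher pooled level in Siglech+ cells, Siglech and Ccr9 by definition, against 50.0% of all genes tested and 0 of the 27 higher genes. The 4 that did not were the cell cycle genes Top2a, Mki67, Stmn1 and Hmgb2. Without the Siglech+ cells, an alternative added after the data were seen, 2445 genes could be tested in the remaining 97 cells and 1 was called (0.0409%), Stmn1, while 231 had an unadjusted p under 0.05. Of the 32 lower genes 16 could still be tested there, of which 11 kept a negative log2 change and 5 turned positive, and 8 of the 11 had an unadjusted p under 0.05. Psap, the precursor of the lysosomal saposins, gave log2 changes of -1.24 with and -1.06 without Siglech+ cells (edgeR adjusted p = 0.0140 and 0.0894). Rnase6, a secreted ribonuclease, gave -1.18 and -1.15 (edgeR adjusted p = 0.0263 and 0.210).

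**Figure D3:**
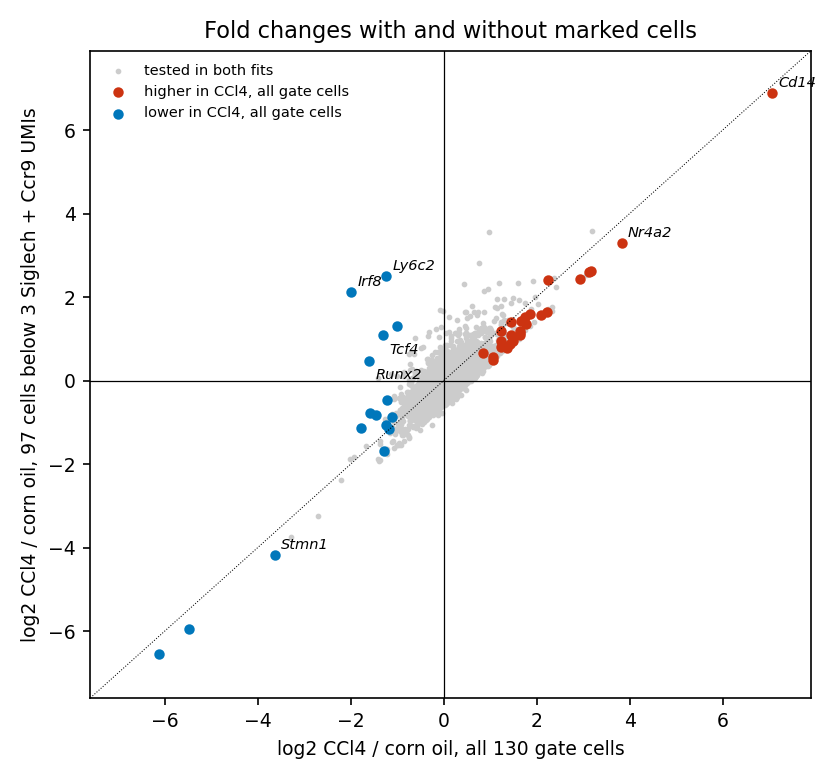
Log2 change between CCl4 and corn oil over all 130 gated cells (x) and over the 97 cells that were not Siglech+ (y). Each gene tested in both is 1 point, with genes called over all cells in red (higher) and blue (lower). All 27 red points stay above 0 on the y axis, while Irf8, Ly6c2, Tcf4 and Runx2 are among the blue points that cross from below 0 to above it.

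Plasmacytoid markers were among the genes that fell. Of 14 such markers 13 were tested, 9 fell and 0 rose, with a median log2 change of -1.72. Siglech stood at 1816, 1858, 702 and 398 CPM, a log2 change of -1.75 ± 0.25 (SE, edgeR adjusted p = 0.00825). Both CCl4 mice were lower than both corn oil mice. Klk1 fell the most, from 294 and 305 to 34.9 and 56.9 CPM, by 2.74 on the log2 scale (SE 0.36). Cox6a2, a subunit of cytochrome c oxidase, fell from 435 and 624 to 128 and 98.2 CPM, and Spib from 480 and 451 to 116 and 109 CPM. All UMIs of Klk1, Cox6a2, Atp1b1 and Atp2a1, a calcium pump, lay in Siglech+ cells. Inside the Siglech+ cells, which are 22 cells of corn oil mice and 11 of CCl4 mice, Siglech was at 5019, 4375, 5192 and 3958 CPM and Cox6a2 at 1202, 1469, 952 and 977 CPM. The groups overlapped there for Siglech. They did not for Cox6a2, but without the cell of 4 UMIs CCl4 2 stood at 1260 CPM, above corn oil 1.

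Some factors of dendritic cell lineages changed sign without Siglech+ cells, but none of them passed the test there. Of 13 tested regulators 3 fell, namely Irf8, Tcf4 and Bcl11a, and 0 rose, with a median log2 change of 0.22. Irf8 went from 1970 and 2323 to 706 and 383 CPM in the gate, a log2 change of -1.99 ± 0.27 (SE, edgeR adjusted p = 0.00825). Without Siglech+ cells its log2 change was 2.11 ± 0.78 (edgeR adjusted p = 0.371). Its corn oil levels there, given above, rest on a few UMIs, so the size of this change is uncertain. Tcf4 gave -1.31 with and 1.08 without Siglech+ cells, and Runx2, a Runt factor, -1.60 and 0.48. Bcl11a, a zinc finger factor, kept its sign, -1.23 and -0.46. The cDC2 factor Irf4 was at 19.2, 66.4, 62.1 and 82.7 CPM and Klf4, a factor needed by part of the cDC2 cells, at 492, 571, 760 and 853 CPM. Neither passed the test.

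Ly6c2, in the list of monocyte markers, fell as well. It stood at 1126, 1566, 609 and 538 CPM (log2 change -1.24, edgeR adjusted p = 0.0212), with 93.3% of its UMIs in Siglech+ cells. Without them its log2 change was 2.50 (edgeR adjusted p = 0.465). In the other cells of corn oil mice it stood at 0 and 46.1 CPM, a few UMIs at most, so the size of that change is uncertain. Ly6c2 has a near-identical neighbour, Ly6c1, and the lectin and Ifitm families hold close copies too. The sources used here do not say how reads shared by such copies were counted, so their levels are uncertain.

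**Figure D4:**
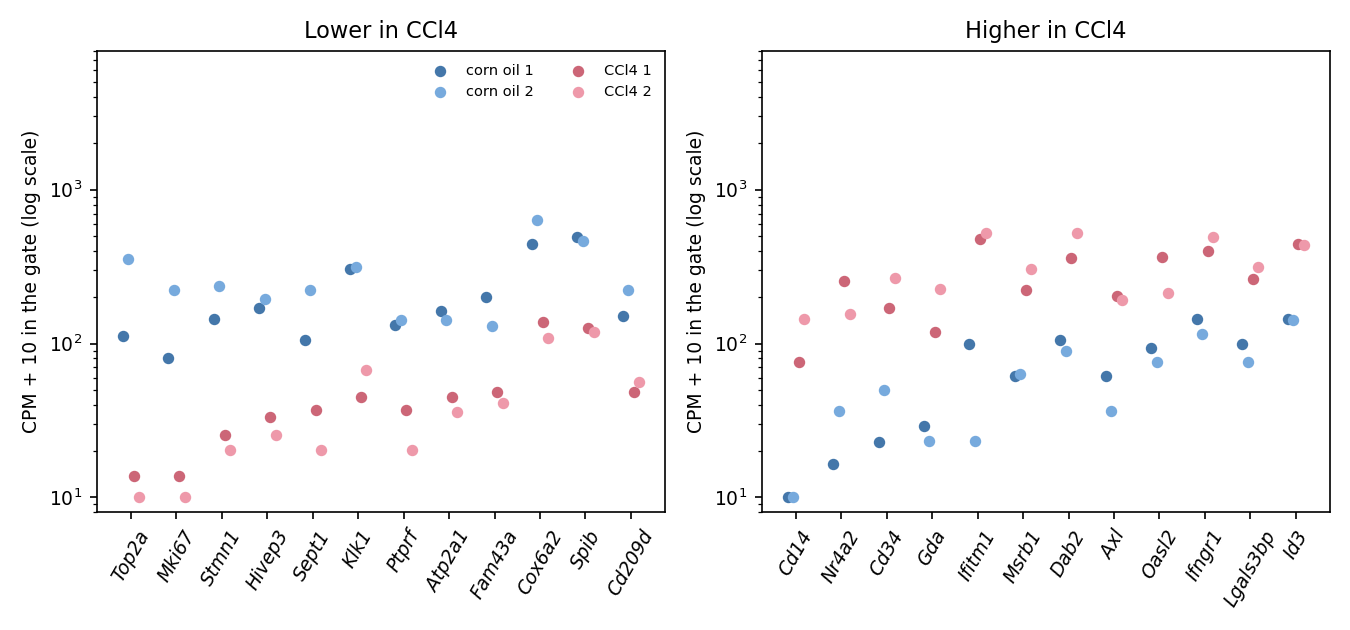
CPM plus 10 in the gate on a log scale for the 12 genes with the largest decrease (left) and the 12 with the largest increase (right), 1 point per mouse, corn oil in blue and CCl4 in red. In every gene shown the 2 corn oil mice and the 2 CCl4 mice do not overlap, which the rule for naming them required.

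The regulatory sequence next to the start of 2 called genes is shown because one, Siglech, divides the gated cells and the other, Ifitm3, is an interferon-inducible gene that rose. Ifitm3, a membrane protein that hinders virus entry, stood at 1010, 677, 2281 and 2632 CPM, a log2 change of 1.49 ± 0.21 (SE, edgeR adjusted p = 0.00825), with both CCl4 mice above both corn oil mice. Both windows run from 250 bases before to 50 bases after the start of the gene (RefSeq, GRCm38.p6) and are written 5′ to 3′ on the strand of the gene. In the first, at chr7:55767934-55768233 on the plus strand, capitals mark CACCTG, an E-box of the kind bound by E proteins such as Tcf4. In the second, at chr7:141010695-141010994 on the minus strand, capitals mark both matches to GAAANNGAAA, the core of the interferon-stimulated response element.
Siglech: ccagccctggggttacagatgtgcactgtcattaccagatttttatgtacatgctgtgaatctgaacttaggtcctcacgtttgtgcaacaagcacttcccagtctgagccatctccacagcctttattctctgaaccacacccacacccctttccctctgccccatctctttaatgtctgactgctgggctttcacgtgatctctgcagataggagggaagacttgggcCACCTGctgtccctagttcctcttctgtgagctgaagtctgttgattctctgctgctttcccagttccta
Ifitm3: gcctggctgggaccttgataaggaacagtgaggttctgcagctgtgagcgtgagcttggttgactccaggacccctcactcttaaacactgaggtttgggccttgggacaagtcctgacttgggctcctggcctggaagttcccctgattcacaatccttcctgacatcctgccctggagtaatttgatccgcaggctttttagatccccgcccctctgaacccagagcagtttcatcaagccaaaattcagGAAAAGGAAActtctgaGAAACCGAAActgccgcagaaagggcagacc

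Both motifs were searched on both strands (CACCTG reads CAGGTG on the other strand) in promoters matched by symbol. CACCTG was found in 7 of 33 promoters of the lower genes (21.2%), of which 25 of 32 were matched, in Siglech, Ccr9, Cd300c, Hivep3, Irf8, Klk1 and Tfrc. That share was 20.2% among all 32851 promoters and 13.8% among those of the higher genes (4 of 29). GAAANNGAAA was found in 6 of 29 promoters of the higher genes (20.7%), of which 23 of 27 were matched, in Ctss, Ifitm2, Ifitm3, Shisa5, Slfn5 and Tgfbi, against 3.44% of all promoters and 9.09% of those of the lower genes (3 of 33, in Cd300c and Rnase6). A match is a description of letters in this window and not a site of binding.

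The largest increases were those of Cd14, Nr4a2, Cd34, Gda and Ifitm1. Cd14, the co-receptor for lipopolysaccharide, had 0, 0, 17 and 26 UMIs, found in 0, 0, 11 and 10 cells. It was at least 7.36-fold higher in CCl4, with the corn oil group set at 3 UMIs (edgeR adjusted p = 0.0372). Nr4a2, an orphan nuclear receptor, had 3 UMIs in corn oil mice and 91 in CCl4 mice, a ratio of 15.6 with an exact counting interval of 5.16 to 76.9 (edgeR adjusted p = 0.0140). Cd34, a sialomucin of progenitor and vascular cells, rose from 12.8 and 39.8 to 159 and 259 CPM, and Gda, guanine deaminase, from 19.2 and 13.3 to 109 and 217 CPM. Ifitm1 rose from 89.5 and 13.3 to 469 and 512 CPM, a log2 change of 2.93 ± 0.41 (SE). No UMI of Cd14, Cd34, Gda or Axl lay in a Siglech+ cell.

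Further named genes rose by smaller factors. Msrb1, a methionine sulfoxide reductase, gave 51.2, 53.1, 213 and 295 CPM, and Dab2, an endocytic adaptor, gave 95.9, 79.6, 349 and 512 CPM. Axl, a receptor of the TAM family that binds apoptotic cells through Gas6, gave 51.2, 26.5, 194 and 181 CPM. Ifngr1, the ligand-binding chain of the interferon-gamma receptor, gave 134, 106, 388 and 481 CPM, a log2 change of 1.78 ± 0.30 (SE, edgeR adjusted p = 0.0140). Id3, an inhibitor of E proteins, gave 134, 133, 434 and 429 CPM, and Lgals3bp, a secreted galectin ligand, 89.5, 66.4, 252 and 305 CPM. In all of these the 2 CCl4 mice stood above the 2 corn oil mice.

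Of 13 tested monocyte markers 6 rose (Cd14, Msrb1, Lyz2, Ifitm3, Ccr2 and Csf1r) and 2 fell (Ly6c2 among them), with a median log2 change of 1.44, which was the same with Cd14 at its bound. Lyz2, lysozyme, stood at 345, 279, 764 and 1267 CPM, a log2 change of 1.64 ± 0.28 (SE, edgeR adjusted p = 0.0164). Ccr2, the receptor that brings monocytes and pre-dendritic cells out of the marrow, stood at 819, 597, 1598 and 2394 CPM, and Ccr2 was found in 22 of 33, 11 of 16, 35 of 47 and 33 of 34 cells. Csf1r, the receptor for macrophage colony-stimulating factor, rose from 173 and 186 to 403 and 533 CPM. The list as a whole summed to 6293, 5509, 8744 and 11458 CPM in the gate and to 36138 and 40285 CPM in the monocytes of the CCl4 mice. Of its defining members, Fcgr1 moved with the genes that rose, from 0 in both corn oil mice to 46.5 and 72.4 CPM in CCl4 mice (8 and 9 cells with a UMI), against 180 and 245 CPM in the CCl4 monocytes. F13a1 stood at 19.2, 0, 50.4 and 31.0 CPM in the gate, against 1350 and 1276 CPM in those monocytes. Chil3, which the monocyte gate itself uses, stood at 6.40, 0, 7.76 and 5.17 CPM. In all other kept cells too, Ccr2 went from 58.0 and 46.6 to 273 and 642 CPM and Cd14 from 92.4 and 95.5 to 198 and 225 CPM. With cells at 3 UMIs or more of 5 monocyte genes, among them the Ly6c2 of Siglech+ cells, kept out of the gate, 18 genes were higher and 15 lower, of which 13 and 6 were among those called here. The part of monocytes or of free monocyte RNA in the rise was not tested.

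The same genes were measured in the 97 cells that were not Siglech+. All 27 kept a positive log2 change there, and all 27 had an unadjusted p under 0.05, but none passed the adjustment, with edgeR adjusted p-values of 0.0809 to 0.504 against 142 higher genes with an unadjusted p under 0.05. Ifitm3 stood at 1563, 1084, 2617 and 2863 CPM in these cells and Lyz2 at 501, 485, 883 and 1397 CPM. Ccr2 stood at 1133, 808, 1811 and 2639 CPM, a log2 change of 1.10 ± 0.25 (SE, edgeR adjusted p = 0.0894). Both CCl4 mice were above both corn oil mice in each of the 3 genes. Since the same mice and cells entered both fits, this is no independent measurement.

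Of 8 tested cell cycle genes 4 fell and 0 rose, with a median log2 change of -1.26, and single cells carried much of the difference. One of the other 4, the histone H2afz, stood at 556, 624, 756 and 972 CPM, a log2 change of 0.53 that was not called (edgeR adjusted p = 0.372). Stmn1, which destabilizes microtubules (chr4:134468320-134473843, GRCm38, plus strand), stood at 134, 226, 15.5 and 10.3 CPM (log2 change -3.64 ± 0.56 SE, edgeR adjusted p = 0.0106), and without Siglech+ cells its log2 change was -4.18 (edgeR adjusted p = 0.0105). However, 20 of its 21 UMIs in corn oil 1 and all 17 in corn oil 2 came from 1 cell each. Top2a, a topoisomerase of dividing cells, had 42 UMIs in corn oil mice, 13 and 24 of them in 1 cell each, and 1 in CCl4 mice. That is a ratio of 81.8 with an exact counting interval of 13.9 to 3306. Mki67, the Ki-67 antigen, had 27 and 1 UMIs, a ratio of 52.6 (8.67 to 2153). In corn oil 1 and 2, 9 of its 11 and 15 of its 16 UMIs lay in the same cells as those of Top2a. The counting intervals treat UMIs as independent, so they are too narrow where 1 cell holds most of them. Cells with at least 2 UMIs of Mki67 and Top2a numbered 2 of 33, 2 of 16, 0 of 47 and 0 of 34. Hmgb2, a chromatin protein, was found in 20, 10, 28 and 22 cells and fell from 531 and 863 to 303 and 264 CPM. In corn oil 1 and 2, 33 of its 83 and 39 of its 65 UMIs lay in 1 cell each. With the highest cell of every mouse left out, Hmgb2 stood at 343, 397, 263 and 243 CPM.

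Few genes of antigen presentation changed in the gate as a whole. Of 15 tested members outside the gate 1 rose and 0 fell, with a median log2 change of 0.03. Ctss, the protease that trims the invariant chain, rose from 1695 and 1473 to 2673 and 3139 CPM (log2 change 0.84 ± 0.18 SE, edgeR adjusted p = 0.0447). H2-Eb1 stood at 6996, 6796, 7231 and 6546 CPM, and its log2 change was -0.03. Without Siglech+ cells H2-Eb1 stood at 10554, 10660, 8180 and 7060 CPM, with both CCl4 mice below both corn oil mice and a log2 change of -0.55 that did not pass (edgeR adjusted p = 0.376). None of the 19 tested MHC class I genes passed, with a median of 0.00.

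Of 22 tested cDC2 features outside the gate 1 fell and 0 rose. It was Cd209d, another lectin of the DC-SIGN family, at 141, 212, 38.8 and 46.5 CPM with 70.2% of its UMIs in Siglech+ cells. Itgam, at the values given above, gave a log2 change of 0.70 ± 0.30 (SE, edgeR adjusted p = 0.376) and Itgax, the CD11c integrin, at 326, 411, 419 and 481 CPM, one of 0.29 ± 0.25. Among 8 tested genes that divide cDC2 into subsets Ccr2 and Csf1r rose, and among 18 tested chemokine and growth factor receptors Ifngr1, Ccr2 and Csf1r rose and Ccr9 fell. Of 17 tested interferon-stimulated genes 1 rose and 0 fell, with 13 positive and a median log2 change of 0.51. It was Oasl2, an antiviral protein, at 83.1, 66.4, 357 and 202 CPM. Of 11 tested glycolysis genes 1 rose, Pkm, pyruvate kinase, at 166, 173, 403 and 408 CPM, with 10 positive and a median of 0.68. As the background of these lists, 1627 of all 3175 genes tested had a positive log2 change. Of all genes tested 0.850% were called higher and 1.01% lower.

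Other lists gave few calls or none. In the list of immediate early and dissociation stress genes Nr4a2 rose and the other 32 did not pass, with a median of 0.02, so that Fos stood at 2168, 1964, 2684 and 3449 CPM without a call. Of the 13 lipid and scar-associated genes Lgals1, galectin 1, fell, at 812, 1115, 337 and 305 CPM with 62.5% of its UMIs in Siglech+ cells, and of the 4 retinoic acid and tolerance genes Lgals1 fell and Axl rose. Cd14 rose among 8 pattern recognition and Fc receptors, Axl among 4 macrophage markers, Id3 among 2 Kupffer markers, while Irf8 fell among 5 cDC1 markers and Ighm, the IgM heavy chain, as the only B cell gene tested. No member passed among 7 cytokines and chemokines, 5 costimulation and maturation genes, 2 mature dendritic cell markers, 3 nonclassical monocyte markers, 2 clock genes, 5 endothelial, 5 stellate and 2 hepatocyte genes and 1 T and NK cell gene, and no neutrophil gene was tested. Stellate markers summed to 959, 385, 2510 and 82.7 CPM in the gate. In CCl4 1, 421 and 202 of their 647 UMIs lay in 2 cells.

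The changes in the gate could not be set against those of cDC1 or monocytes by a test, since corn oil 2 had 16 gated cells and the comparison required 20 in every mouse. Side by side, Nr4a2 stood at 249, 270, 173 and 95.3 CPM in cDC1 and at 13.6, 66.1, 149 and 118 CPM in monocytes. Cd14 stood at 8.45, 14.2, 0 and 21.2 CPM in cDC1 and at 71.4, 54.1, 797 and 714 CPM in monocytes. For both genes the corn oil and CCl4 levels of the monocyte gate do not compare the same cells. The corn oil cells of that gate were rich in T and NK markers, and in corn oil 1 also in B cell markers. Its monocyte markers summed to 9524, 8548, 36138 and 40285 CPM. Ccr2 in cDC1 was at 684, 1008, 896 and 1602 CPM. In the cells that missed the gate only for lack of Flt3 and Zbtb46, Ccr2 was at 347, 983, 1380 and 2308 CPM and Siglech at 2344, 2112, 1176 and 225 CPM, which ordered the groups as in the gate. In the same cells Cd14 was at 183, 235, 148 and 102 CPM and Lyz2 at 6258, 5956, 2268 and 4524 CPM, with both CCl4 mice below both corn oil mice, opposite to the gate. Those cells were not tested.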

How the data were processed

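Single liver cells of 4 mice were measured by whole-transcriptome sequencing on BD Rhapsody. Per the file headers, the authors' tables came from the BD WTA Rhapsody Analysis Pipeline 1.9.1 on GRCm38 with GENCODE vM19. The deposited values are counts of molecules (UMIs) per cell and gene, corrected by the pipeline. The sources used here do not name the aligner. Kept cells had at least 200 genes and at most 25% mitochondrial UMIs, and doublets were left in.

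UMIs of gated cells were summed per mouse (75338 to 257788) and tested with edgeR 4.0.16 in R 4.3.3 (quasi-likelihood, TMM, filterByExpr, Benjamini-Hochberg, adjusted p under 0.05). The 24 gate genes stayed in the library sizes and were not tested. The labels name each sample as 1 mouse, and p-values rest on 2 mice a group. The members and the 29 gene lists were chosen with earlier results of these data known. Named genes are the 12 largest called changes in each direction with groups that do not overlap and at least 50 CPM in the higher group, up to 4 called members a direction and the 3 highest of each list, and the 15 leading genes of the gate. Other genes named were chosen after their values were seen. Alternatives used DESeq2 1.42.0 and limma 3.58.1. Ifi30 and Clec7a were not analysed here, and 1 called gene, which stays in the counts, is not reported here. Python 3.11.15, numpy 2.4.6, scipy 1.17.1, scanpy 1.11.5 (simulated-doublet score) and matplotlib 3.10.9 were used.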

Additional observations from a re-analysis of the deposited data

How the results depend on the processing

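The counts of called genes over the gate, 27 higher and 32 lower, depended on the test and on the cells. They were 8 and 16 with DESeq2 and 2 and 10 with limma-voom, 62 and 61 with no filter on low counts (11994 genes tested), 5 and 13 with a gate at 4 lectin UMIs and 17 and 19 with a gate on thinned cells. They were 18 and 15 in the gate without monocyte genes and 0 and 1 in the gate without plasmacytoid genes, where fewer cells and genes were tested, and otherwise the cause was not tested. Leaving out each mouse gave 30 to 73 higher genes (73 without the first corn oil mouse, 51 without the second) and 23 to 74 lower genes (74 and 52 without the same mice, 54 without CCl4 1), with the lone mouse of a group assumed to vary like the other group. Of the 59 called genes, 25 were called without each of the 4 mice and none under all 16 alternatives. With RLE factors, a mitochondrial maximum of 15%, removal of the top 5% doublet scores or thinned sums, both counts stayed within 1.5 times. The signs of Irf8 (2.11), Tcf4 (1.08), Ly6c2 (2.50) and Runx2 (0.48) reversed without plasmacytoid genes, though none of them was called there. That of Tcf4 (0.61) reversed without monocyte genes.

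The share of the gate, a log2 change of 0.97, was not called except without corn oil 1 (1.63). Leaving out 1 mouse gave 0.51 to 1.63, and it reversed to -0.67 over Ptprc cells and -0.33 over the 3 dendritic gates. Without Siglech+ cells, alternatives added after the data were seen, these were -0.081 and 0.061. The sign over the dendritic gates thus differed with and without Siglech+ cells, but neither change was called and their difference was not tested. Sample numbers are shared by the groups, but the labels do not say that they pair the mice. Deviations of the samples numbered alike correlated at 0.02, which cannot decide it with 2 mice a group. A replicate block gave 52 higher and 61 lower genes, among them all 59, and a share change of 1.00. The tests of a different change in cDC1 or monocytes, with their alternatives, were not run because of the 16 gated cells of corn oil 2. Depth limits these results. A gene with no UMI in both corn oil mice may still hold 3 in 231705 UMIs.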
